A study of Homo sapiens with 8 samples.

Results

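The genes described here are NFE2L2, which encodes the transcription factor NRF2, KEAP1, which encodes its inhibitor, and 7 genes that NRF2 is known to drive: GCLM, GCLC, TXNRD1, SRXN1, NQO1, HMOX1 and PTGR1. They were taken by symbol from a table of 54261 genes, and all 9 were found. The 9 were chosen with earlier results of these data known, so p-values and shares given below are not independent of that choice. Each of the 8 libraries was made from ribosome-depleted total RNA of 1 cell line. NCM460 and HIEC6 are labelled as normal human intestinal epithelial lines, DLD1, HCT116 and HCT8 are colorectal carcinoma (CRC) lines, and all 5 were sequenced untreated. The CRC lines were sequenced once more after hypoxia, whose oxygen level and duration are not given in the sources used here. All cells were at passage 5 in DMEM with fetal bovine serum. A group of lines has 1 library per line, so the spread within a group is the spread between lines.

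NRF2 is the main switch of the antioxidant response. In unstressed cells KEAP1 holds NRF2 and hands it to a ubiquitin ligase for destruction, and oxidants or electrophiles that modify KEAP1 let NRF2 escape, enter the nucleus and bind antioxidant response elements together with small MAF proteins. Its targets make glutathione, reduce thioredoxin and peroxiredoxins, break down heme and detoxify reactive carbonyls, and loss of KEAP1 is known to leave NRF2 active without stress.

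The core of the antioxidant response element, TGACNNNGC, was searched on both strands of the RefSeq promoters of these genes (GRCh38.p14, 250 bases before to 50 after a gene's start). The matches are shown because they set GCLM and TXNRD1, which were high in HIEC6, beside KEAP1, which was low there. Promoters, 11 in all, were found for 8 of the 9 genes, HMOX1 being the exception, and 3 of the 8 held the core: GCLM, TXNRD1 and KEAP1 itself. The others held none, PTGR1 and SRXN1 among them, which were also higher in HIEC6. Of all 27305 genes with a promoter in this table, 16.1% held it. All are written in the direction that reads TGAC, with the core in capitals, and 2 of the TXNRD1 matches lie at an upstream start and 1 before a downstream start.
GCLM, chr1:93909446-93909474, plus strand, 34 to 26 bases before the start: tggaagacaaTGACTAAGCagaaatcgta
KEAP1, chr19:10502784-10502812, plus strand, 31 to 23 bases before the start: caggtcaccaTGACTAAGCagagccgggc
KEAP1, chr19:10502807-10502835, minus strand, 54 to 46 bases before the start: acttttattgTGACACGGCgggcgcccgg
TXNRD1, downstream start, chr12:104286920-104286948, minus strand, 102 to 94 bases before it: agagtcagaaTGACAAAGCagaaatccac
TXNRD1, upstream start, chr12:104215670-104215698, plus strand, 99 to 91 bases before it: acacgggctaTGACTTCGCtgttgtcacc
TXNRD1, upstream start, chr12:104215761-104215789, minus strand, from 8 bases before it to the start: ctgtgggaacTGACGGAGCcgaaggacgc
The GCLM match and 1 of the KEAP1 matches share the core TGACTAAGC. A match is a run of letters and not a shown binding site, and the absence of one in these windows says nothing of elements that lie farther away.

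Total counts ran from 45519306 to 57374239 per library, and levels are given as CPM, the counts of a gene per 1000000 counts of its library. Intervals cover counting error only. Across genes, log2(CPM + 1) of the library labelled NCM460 correlated at 0.994 with untreated HCT116, above the 0.980 between HCT116 and its own hypoxia library, and at 0.924 with HIEC6. It is called the library labelled NCM460 below, and results that rest on it are also given without it. HIEC6 carried the keratins KRT8 (4290 CPM) and KRT18 (3725 CPM), but EPCAM was at 0.176 CPM, CDX2 at 0.0529 CPM and KRT19 at 0.987 CPM, and the mesenchymal filament gene VIM was at 1223 CPM against 1.03 to 8.62 CPM in the other untreated lines. Of 10 epithelial markers, 4 reached 1 CPM in HIEC6 and 7 to 9 in the others, with a summed level of 8084 CPM in HIEC6 and 4616 to 11410 CPM in the others. The 10 mesenchymal markers summed to 1302 CPM in HIEC6, nearly all of it VIM, and to 8.22 to 57.5 CPM in the others. Of these markers 6 reached 1 CPM in HIEC6 and 4 to 6 in the others. Beside VIM, COL1A1 (46 CPM), ZEB1 (16.8 CPM), PDGFRB (8.6 CPM) and TWIST1 (5.31 CPM) were highest in HIEC6 among the untreated lines, while COL3A1 (1.16 CPM) was not. COL1A2 (0.458 CPM) and SPARC (0.247 CPM) were lowest in HIEC6. PTPRC, which marks leukocytes, was at or below 0.106 CPM everywhere. HIEC6 thus differed from the other lines far beyond the NRF2 genes, and the part of that in the values below was not tested. In the treatment check, 10 of 10 hypoxia-response genes were higher under hypoxia in each line, though BNIP3 was at or near 0 in DLD1 and HCT8. The untreated and hypoxia libraries of the CRC lines share no run label, so run and treatment cannot be told apart.

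KEAP1 was nearly absent from HIEC6. KEAP1 (ENSG00000079999, chromosome 19, 10596801 to 10614234, minus strand, GRCh37) had 77 counts there against 3955, 6022, 4087 and 5710 in the library labelled NCM460, DLD1, HCT116 and HCT8. These are 1.36 CPM (95% interval 1.07 to 1.70) in HIEC6 and 80.4, 118, 78.2 and 108 CPM in the other lines. The HIEC6 level was 57.6-fold below the lowest of them. In bulk RNA, fewer cells with the transcript and less transcript per cell cannot be told apart. Among the 9772 genes whose median in the 4 other untreated lines was at least 10 CPM, 2.47% were as low or lower in HIEC6 relative to that median. KEAP1 was 1 of the 9 genes at least 2-fold below the lowest other line, where 16.8% of all 19964 genes tested were.

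**Figure D1:**
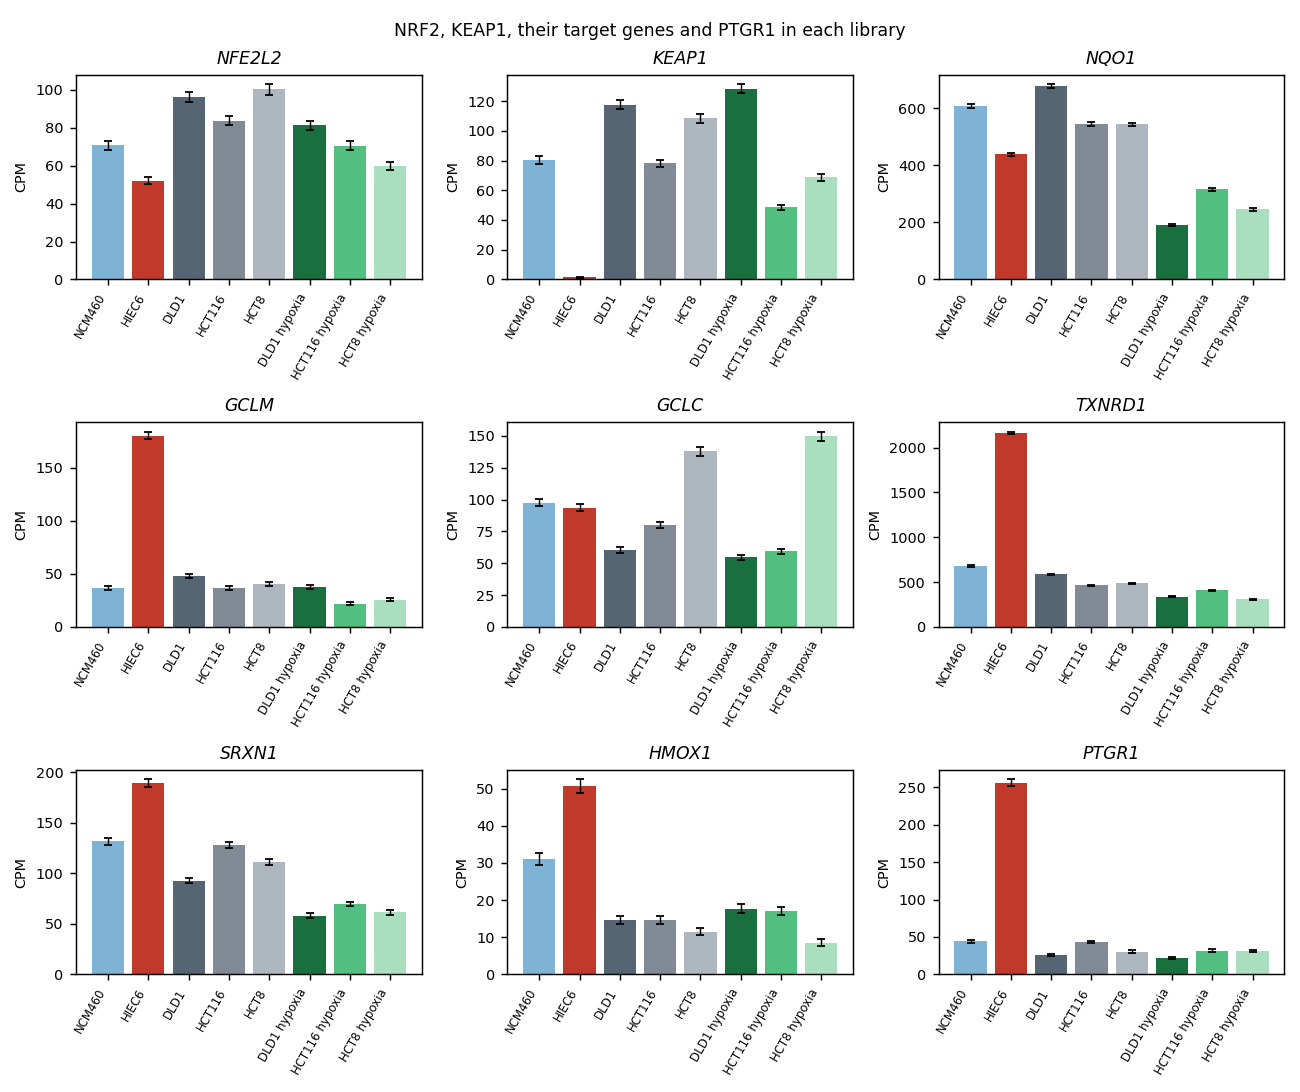
Level of each gene in CPM (vertical axis, from 0) in the 8 libraries, with bars for the level and whiskers for the 95% counting interval; there is 1 library per bar. HIEC6 (red) stands at 1.36 CPM for KEAP1 and above every other library for GCLM, TXNRD1, SRXN1, HMOX1 and PTGR1.

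A model of all genes with HIEC6 against the 4 other untreated lines, which takes its spread from those 4 and assumes that HIEC6 varies like them, gave a log2 fold change of -5.89 for KEAP1 (standard error 0.46, adjusted p = 0.0368, quasi-likelihood test of edgeR, Benjamini-Hochberg adjusted). It called 0.451% of genes. KEAP1 and GCLM were the 2 of the 9 genes past the threshold, and both were also called without a filter on low counts (0.785% of genes) and with at least 10 counts in every library (0.972% of genes). The log2 fold change was similar without the library labelled NCM460 (-5.95), but no gene was then past the threshold (adjusted p = 0.126 for KEAP1), nor with DLD1, HCT116 or HCT8 left out in turn, with adjusted p from 0.0566 to 0.136 over these 4 edgeR fits. The call therefore needs all 4 lines, while the level rests on 77 counts in 1 library of HIEC6. The 4 lines were not equally far apart. In log2(CPM + 1), DLD1 and HCT8 correlated at 0.974, and the library labelled NCM460 and HCT116 at 0.994. Pairs across these correlated at 0.944 to 0.953. The fits here and below count each line as independent, which was not tested, and p-values are too small if they are not.

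The genes around KEAP1 were expressed in HIEC6. This set was chosen after the KEAP1 value was seen: the 5 nearest protein-coding genes on each side whose median in the 4 other lines was at least 10 CPM. CDC37, a kinase co-chaperone on the side of lower coordinates, had 110 CPM in HIEC6 and 114 to 133 CPM in the others. On the other side ATG4D, an autophagy protease 40.3 kb away, had 29.1 CPM against 22.7 to 34.7 CPM. The lowest of the 10 relative to the median was AP1M2, an epithelial adaptor subunit, at 26.5 CPM against 76.6 to 139 CPM. The ratio of HIEC6 to the median of the other lines lay between 0.215 and 1.09 for the 10 neighbours and was 0.0144 for KEAP1.

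**Figure D2:**
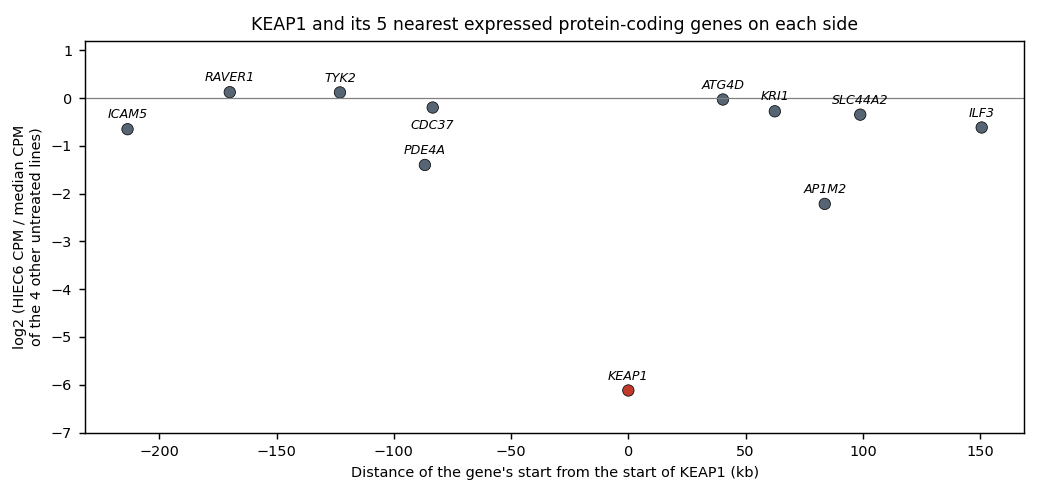
Log2 ratio of the HIEC6 level to the median of the 4 other untreated lines (vertical axis) for KEAP1 and the 5 nearest expressed protein-coding genes on each side, against the distance of each gene's start from that of KEAP1 in kb (horizontal axis). KEAP1 (red) is at -6.12 and the neighbours lie between -2.22 and 0.12.

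NFE2L2, the gene of NRF2 itself (ENSG00000116044, chromosome 2), was not raised in HIEC6. Its level was 52.1 CPM there and 70.7, 96.4, 83.9 and 100.3 CPM in the library labelled NCM460, DLD1, HCT116 and HCT8. HIEC6 was the lowest of the 5 lines, also after TMM scaling (59.5 against 70.7 to 92 CPM). The log2 fold change of -0.50 (standard error 0.27) did not pass the test (adjusted p = 0.363, edgeR). The annotated span of NFE2L2 overlaps HNRNPA3 and AGPS on the opposite strand, and whether the counting used strand is not given in the sources used here.

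The genes of glutathione synthesis parted. GCLM (ENSG00000023909, chromosome 1) encodes the modifier subunit of glutamate-cysteine ligase, the first enzyme of glutathione synthesis, and GCLC (ENSG00000001084, chromosome 6) the catalytic subunit. GCLM had 180 CPM in HIEC6 against 36.6, 48, 36.8 and 40.1 CPM in the library labelled NCM460, DLD1, HCT116 and HCT8, 3.76-fold above the highest of them. The log2 fold change was 2.40 (standard error 0.24, adjusted p = 0.0446, edgeR). This call fell away with upper-quartile scaling (log2 fold change 2.25, adjusted p = 0.0506 by edgeR, 0.356% of genes called). It also fell away with any of the 4 other lines left out (log2 fold change 2.36 to 2.51, adjusted p from 0.0606 to 0.1945 by edgeR). Limma-trend and DESeq2 also called GCLM (log2 fold change 2.41 and 2.46) and KEAP1 (-5.86 and -5.84). Both tools called far larger shares of all genes than edgeR, with the same 1 library of HIEC6. KEAP1 stayed called with upper-quartile scaling (-6.05). GCLC, by contrast, had 93.8 CPM in HIEC6 and 97.4, 60.4, 80.1 and 138 CPM in the same order, inside the range of the other lines. Its log2 fold change of 0.25 (standard error 0.43) did not pass the test (adjusted p = 0.762, edgeR). The difference between the subunits was not tested.

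The thioredoxin branch was higher in HIEC6 in level, with no call in the edgeR fit. TXNRD1 (ENSG00000198431, chromosome 12), the cytosolic reductase that recycles thioredoxin, had 2163 CPM in HIEC6 and 678, 585, 462 and 486 CPM in the library labelled NCM460, DLD1, HCT116 and HCT8. HIEC6 was 3.19-fold above the highest other line (3.70-fold without the library labelled NCM460), and the log2 fold change of 2.20 (standard error 0.31) had an adjusted p = 0.0616 by edgeR, 0.0393 by limma-trend (3.01% of genes called) and 2.93e-06 by DESeq2 (17.9% of genes called). SRXN1 (ENSG00000271303, chromosome 20), sulfiredoxin, which repairs over-oxidised peroxiredoxins, had 189 CPM against 131, 92.6, 128 and 111 CPM. Its log2 fold change was 0.94 (standard error 0.31, adjusted p = 0.197, edgeR). HIEC6 lay above all 4 other lines at any size for 5 of the 9 genes, SRXN1 among them, as for 20.9% of all genes. PTGR1 was 1 of these 5 and was chosen with its HIEC6 level known. HIEC6 lay below all 4 for 3 of the 9, as for 38.3% of all genes.

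NQO1 (ENSG00000181019, chromosome 16), a quinone reductase widely read as the standard NRF2 target, did not follow GCLM and TXNRD1. It had 438 CPM in HIEC6 and 608, 677, 545 and 544 CPM in the library labelled NCM460, DLD1, HCT116 and HCT8. HIEC6 was below all of them in CPM and inside their range after TMM scaling (501 against 470 to 646 CPM). The log2 fold change of -0.20 (standard error 0.28) did not pass the test (adjusted p = 0.71, edgeR).

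HMOX1 (ENSG00000100292, chromosome 22), heme oxygenase 1, which opens the heme ring, had 50.6 CPM in HIEC6, 31.1 CPM in the library labelled NCM460, and 14.6, 14.6 and 11.5 CPM in DLD1, HCT116 and HCT8. It was highest in both libraries labelled normal. The log2 fold change of HIEC6 was 1.71 (standard error 0.62, adjusted p = 0.23, edgeR). HMOX1 was the only one of the 9 genes with a ratio of at least 2 between the library labelled NCM460 and HCT116 (2.13). For the other 8 genes that ratio lay between 0.843 and 1.47.

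PTGR1 (ENSG00000106853, chromosome 9, 114312002 to 114362173, minus strand, GRCh37) encodes prostaglandin reductase 1, which inactivates leukotriene B4 and reduces reactive enals. Its HIEC6 level was known when the genes were chosen and is given with no test. PTGR1 had 256 CPM (95% interval 252 to 260) in HIEC6 and 44.3, 26.3, 43.4 and 30.6 CPM in the library labelled NCM460, DLD1, HCT116 and HCT8. HIEC6 was 5.77-fold above the highest of them (5.90-fold without the library labelled NCM460). GCLM and TXNRD1 were at least 2-fold above the highest other untreated line, as 4.90% of all 19964 genes tested were. They were also at least 2-fold above all 7 other libraries (background 3.95%), as KEAP1 was at least 2-fold below all 7 (background 12.7%). PTGR1 was past both limits as well, but its HIEC6 level was known beforehand, so it is not set against these shares. The other genes were also chosen with earlier results of these data known, so for them too the shares are no independent test. Without the library labelled NCM460, HMOX1 joined GCLM and TXNRD1, beside 5.44% of all genes. On the TMM scale the background was 7.37% above and 13.8% below the other lines.

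**Figure D3:**
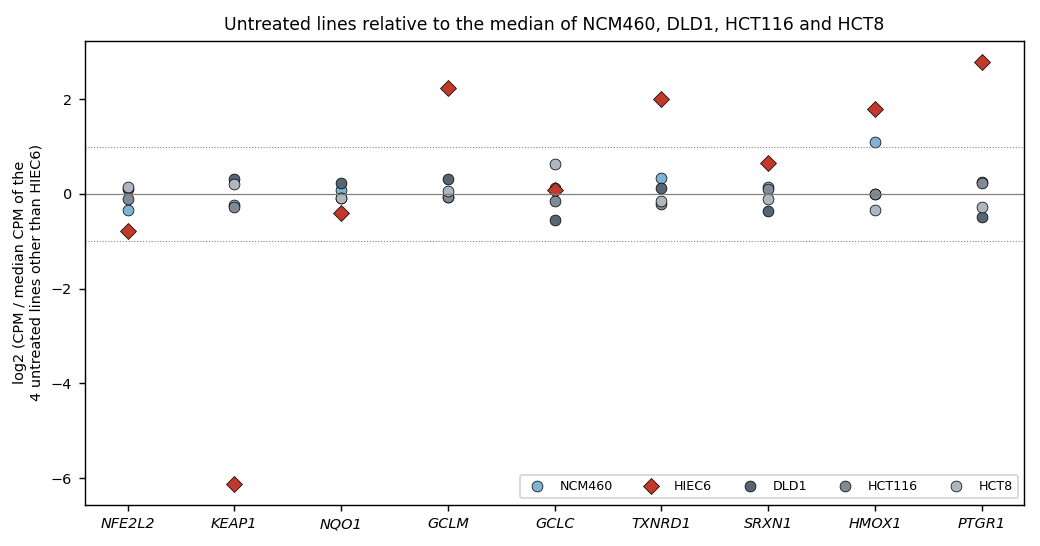
Log2 ratio of each untreated library to the median of the library labelled NCM460, DLD1, HCT116 and HCT8 (vertical axis) for the 9 genes, with a diamond for HIEC6, circles for the other lines and dotted lines at 2-fold. HIEC6 is at -6.12 for KEAP1, 2.23 for GCLM, 2.01 for TXNRD1 and 2.79 for PTGR1, and within 1 log2 unit of the median for NFE2L2, NQO1, GCLC and SRXN1.

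Of 10095 genes with a mean of at least 10 CPM, the 5 whose log2(CPM + 1) correlated best with PTGR1 over the 8 libraries were RPL10P9, FADS2, PRELID3B, LAMA5 and BST2 (Pearson's r 0.985 to 0.988). All 5 had their highest level in HIEC6, and 1 library thus carries these values. TXNRD1 came at rank 91 (0.925), GCLM at rank 194 (0.865), HMOX1 at rank 394 (0.790) and SRXN1 at rank 404 (0.786). NQO1 (0.218, rank 3301) and GCLC (0.193, rank 3460) went little with PTGR1, and NFE2L2 (-0.683, rank 8743) and KEAP1 (-0.963, rank 10056) went against it. PTGR1 was far higher in HIEC6 than elsewhere, so the values of these genes too mainly restate their HIEC6 levels. They are no separate evidence of a link to PTGR1. RPL10P9 is a ribosomal protein pseudogene whose reads cannot be told from those of its near-identical copies.

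The wider pathway list held 52 further genes, of which 50 could be compared in HIEC6. It was chosen with earlier results of these data known. Its counts and those of its roles, here and below, are thus no independent test against the background shares. Of these, 11 were at least 2-fold above the highest other untreated line (background 4.90%), 5 at least 2-fold below the lowest (background 16.8%) and 34 neither, with a median log2 ratio of 0.70 against -0.31 over all genes. Without the library labelled NCM460 the counts were 14 and 5. In the edgeR fit, which called 0.451% of all genes, 2 of the 50 were past the threshold, in opposite directions. SQSTM1, the autophagy receptor p62, which binds KEAP1 and is an NRF2 target, had 2868 CPM in HIEC6 against 469 to 731 CPM (log2 fold change 2.61, adjusted p = 0.0443). GSTP1, a glutathione transferase, had 0.582 CPM against 434 to 764 CPM (-9.67, adjusted p = 0.0344).

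By role, the aldo-keto reductases and other detoxifying enzymes had 5 of 10 genes at least 2-fold above the other lines (background 4.90%), and the heme and iron group had 0 of 5. The largest ratios belonged to AKR1C2 (317 CPM in HIEC6 against 0.644 to 14.6 CPM), AKR1C1 (110 against 0.195 to 31.3 CPM) and AKR1C3 (212 against 0.555 to 31.5 CPM). These enzymes reduce steroids and lipid carbonyls, and their sequences are so alike that reads may be split among them. Of 8 genes of glutathione synthesis and use, 2 were at least 2-fold above the other lines, 1 below and 5 neither. The 2 were the cystine carrier SLC7A11 (585 CPM against 103 to 225 CPM) and the microsomal transferase MGST1 (470.5 against 26.2 to 86.8 CPM). The lowest ratios after GSTP1 were those of NFE2L3, a relative of NRF2 (3.4 against 37.3 to 91 CPM), and of the malic enzyme gene ME1 (31.6 against 101 to 255 CPM). Of the 4 PTGR1 relatives, PTGR2 and PTGR3 (listed as ZADH2) were at least 2-fold below the other lines (background 16.8%). None of the genes in this paragraph passed the edgeR test except GSTP1, and none in the list passed with any line left out, since no gene did.

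**Figure D4:**
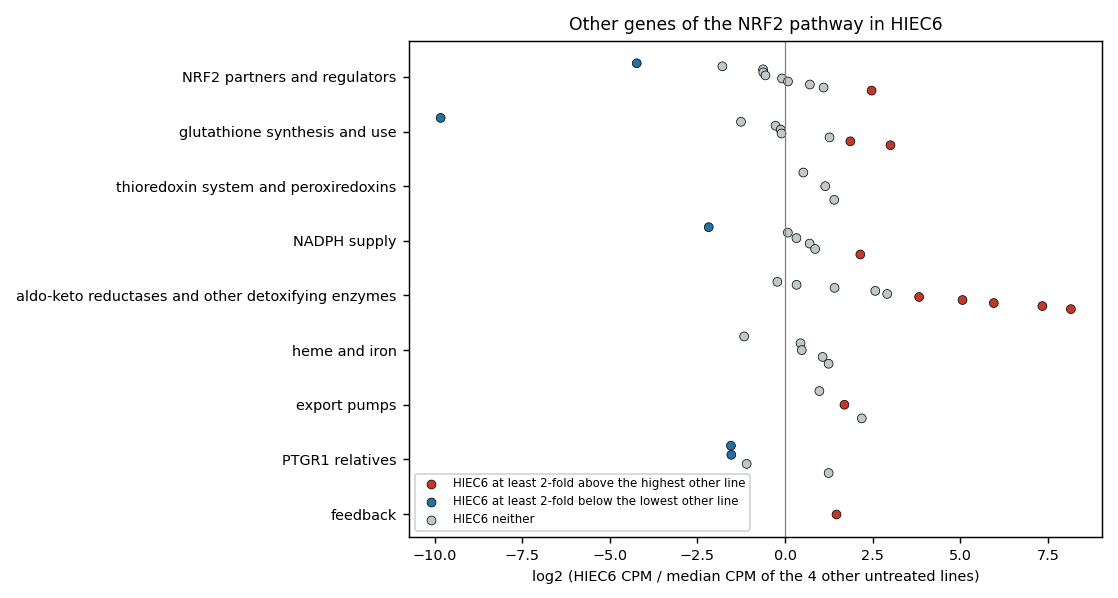
Log2 ratio of the HIEC6 level to the median of the 4 other untreated lines (horizontal axis) for the 50 other genes of the NRF2 pathway list, 1 point per gene, by role (vertical axis). Red points (11) are at least 2-fold above the highest other line and blue points (5) at least 2-fold below the lowest, with GSTP1 at -9.83 and AKR1C2 at 8.15.

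The study sequenced these lines to compare CRC with normal cells. Over all genes 0% of 19964 passed edgeR's test between the 3 CRC and the 2 normal libraries (542 at an unadjusted p under 0.05), DESeq2 called 143 (0.716%), and limma-trend called 0. The 2 normal libraries lay far apart for several of the 9 genes. The mean of KEAP1 was 101 ± 20.6 CPM over the CRC lines (n = 3, SD), against 40.9 ± 55.9 CPM over NCM460 and HIEC6 (n = 2, SD), which stood at 80.4 and 1.36 CPM. For TXNRD1 the means were 511 ± 65 CPM and 1420 ± 1050 CPM. Without HIEC6, the log2 fold change of KEAP1 moved from 1.2 to 0.23, that of TXNRD1 from -1.70 to -0.51, that of PTGR1 from -2.40 to -0.50, that of SRXN1 from -0.74 to -0.35, and that of GCLM turned from -1.62 to 0.08. Without the library labelled NCM460 they moved the other way, KEAP1 to 5.95, TXNRD1 to -2.34, PTGR1 to -3.19, SRXN1 to -1.03 and GCLM to -2.38. HIEC6 was then the only normal library, so only effect sizes are given. Both normal libraries lay above all 3 CRC lines for 4 of the 9 genes, TXNRD1, SRXN1, HMOX1 and PTGR1. The share of all genes tested was 4.99% in CPM and 7.63% after TMM scaling. For SRXN1 and PTGR1 the library labelled NCM460 barely exceeded HCT116 (131.5 against 128.1 and 44.3 against 43.4 CPM), with overlapping counting intervals. PTGR1 was also chosen with its HIEC6 level known. For HMOX1 the log2 fold change of -1.79 (standard error 0.42) had an adjusted p = 0.999 by edgeR and 0.0364 by DESeq2, and it was -1.29 without HIEC6 and -2.15 without the library labelled NCM460.

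Under hypoxia NQO1, SRXN1 and GCLM were lower in level in each CRC line, and none of the 9 genes passed edgeR's test. NQO1 was lower in each line, from 677 to 192 CPM in DLD1, from 545 to 316 CPM in HCT116 and from 544 to 246 CPM in HCT8. All 3 hypoxia libraries lay below all 3 untreated ones. The log2 ratios were -1.82 (95% counting interval -1.85 to -1.79), -0.79 (-0.82 to -0.76) and -1.14 (-1.18 to -1.11). NQO1 was the only one of the 9 genes that changed at least 2-fold, lower in DLD1 (background 5.90%) and in HCT8 (background 9.81%), and not in HCT116, where 25.7% of genes were at least 2-fold lower. The whole distribution was shifted in HCT116: the median log2 ratio over all genes was -0.35 in CPM and 0.01 after TMM scaling, which gave -0.43 for NQO1 there. In DLD1 and HCT8 the median stayed within 0.1 on both scales.

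SRXN1 went from 92.6 to 58.2 CPM in DLD1, from 128 to 69.4 CPM in HCT116 and from 111 to 61.2 CPM in HCT8. In CPM, untreated and hypoxia levels did not overlap (background 6.44%), and the log2 ratios were -0.67, -0.88 and -0.86. After TMM scaling these ratios were -0.64, -0.53 and -0.85, the smallest change being in HCT116. GCLM was lower by less in each line, from 48 to 37.5, from 36.8 to 21.9 and from 40.1 to 25.5 CPM (log2 ratios -0.36, -0.75 and -0.65), and untreated HCT116 lay below DLD1 under hypoxia, so that the groups overlapped. These 3 genes, NQO1, SRXN1 and GCLM, were lower in all 3 lines on both scales.

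TXNRD1 was lower in CPM in each line, from 585 to 335 in DLD1, from 462 to 409 in HCT116 and from 486 to 307 in HCT8, and NFE2L2 too, from 96.4 to 81.3, from 83.9 to 70.6 and from 100.3 to 59.9. Both turned to slightly higher in HCT116 after TMM scaling (log2 ratio 0.18 and 0.11). In CPM 5 of the 9 genes were lower in all 3 lines, where 26.4% of 21045 genes were, and after TMM scaling 3 of 9, where 21.3% were. No overlap between the hypoxia and the untreated libraries was seen for 4 of 9 in CPM (background 6.44%) and for NQO1 and SRXN1 after TMM scaling (background 4.80%). For SRXN1 the gap on that scale was smaller than counting error, with 87.9 in HCT116 under hypoxia against 88.3 in untreated DLD1.

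The other 4 genes had no shared direction. KEAP1 went from 118 to 128 CPM in DLD1, from 78.2 to 48.4 CPM in HCT116 and from 108 to 68.7 CPM in HCT8. GCLC differed more between lines than with treatment, at 60.4 and 54.8 CPM in DLD1, 80.1 and 59.3 CPM in HCT116 and 138 and 149.6 CPM in HCT8, untreated and under hypoxia. HMOX1, which is known to respond to hypoxia in some cells, stayed low at 14.6 and 17.7, 14.6 and 17 and 11.5 and 8.55 CPM. PTGR1 went from 26.3 to 21.9 CPM in DLD1 and from 43.4 to 31.9 CPM in HCT116, and was 30.6 and 31 CPM in HCT8, so that every CRC library under either condition lay far below the 256 CPM of HIEC6.

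**Figure D5:**
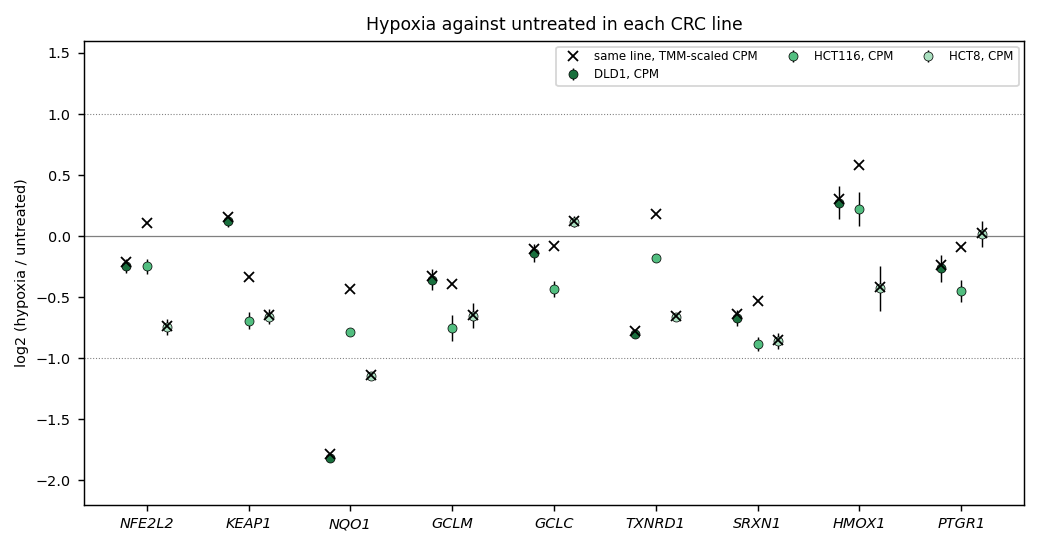
Log2 ratio of hypoxia to untreated (vertical axis) for the 9 genes in DLD1, HCT116 and HCT8, as circles in CPM with 95% counting intervals and as crosses after TMM scaling, with dotted lines at 2-fold. NQO1 is lowest in DLD1 at -1.82, and the crosses of HCT116 sit above its circles for every gene.

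None of the 9 genes passed the edgeR test between the 3 hypoxia and the 3 untreated libraries, where 0% of 21045 genes did (607 at an unadjusted p under 0.05), DESeq2 called 55 (0.261%), and limma-trend called 0. With the cell line as a block, edgeR called 200 genes, 0.95% of those tested, and again none of the 9. In the blocked edgeR fit NQO1 came nearest (log2 fold change -1.12, standard error 0.26, adjusted p = 0.092), followed by SRXN1 (-0.67, standard error 0.17, adjusted p = 0.108). DESeq2 with the block called these 2 genes (adjusted p = 0.0091 and adjusted p = 0.0139) and 7.92% of all genes. Without the HCT116 pair, the blocked edgeR fit called NQO1 (-1.48, adjusted p = 0.00314), SRXN1 (adjusted p = 0.0366) and TXNRD1 (adjusted p = 0.0397), and 3.78% of all genes. It called none of the 9 without the HCT8 pair (0.0304% of all genes) or without the DLD1 pair (1.47%).

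In the wider list, 22 of 51 genes were lower in all 3 lines in CPM (background 26.4%) and 6 were higher (background 16.2%). The downward shift of CPM in HCT116 enters these counts and their background, and no count after TMM scaling is given for the list. The edgeR fit with the block called 1 gene, SLC7A11, which is also driven by the amino acid response factor ATF4. It went from 125 to 47.9 CPM in DLD1, from 225 to 49.5 CPM in HCT116 and from 197 to 60.6 CPM in HCT8 (log2 fold change -1.62, adjusted p = 0.0115, edgeR). MAFG, a small MAF partner of NRF2, had log2 ratios of -0.84, -0.08 and -0.87 in the same order. GLRX, a glutaredoxin, was higher in each line, at 0.34, 2.38 and 1.21, and MAFF, another small MAF, at 0.06, 2.02 and 0.56, neither past the test. HMOX2, which encodes the constitutive heme oxygenase, had, among genes of the list that reached 1 CPM in the pair, the lowest ratio in HCT116 (4.02 to 0.343 CPM) and HCT8 (2.03 to 0.527 CPM). The other genes that the naming rule gave were AKR1C3 (log2 ratio 1.57 in DLD1 and 1.73 in HCT116), CBR3 (0.69) and GGT1 (0.41) in DLD1, FTH1 (0.77) and AKR1B1 (-1.35) in HCT8, and NFE2L3 (-1.46) in HCT116. The median log2 ratio of the list was -0.04, -0.56 and -0.15, beside 0.00, -0.35 and 0.01 over all genes.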

How the data were processed

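Total RNA was sequenced after removal of ribosomal RNA. The authors aligned clean reads to GRCh37.p13, while the submitters' processing notes name HISAT2 2.0.4 and GRCh38. The deposited table holds raw read counts per gene symbol. The counter, its strand setting and its treatment of reads with several matches are not given in the sources used here. All 8 columns were used (0 left aside), mapped by the code that opens each sample title.

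CPM used the column totals, and 3 counts, the floor, were 0.0523 to 0.0659 CPM. Tests used edgeR 4.0.16 in R 4.3.3 (glmQLFit and glmQLFTest, TMM, Benjamini-Hochberg adjustment over all genes, threshold 0.05) on genes that reached 10 counts in 2 or more of the fitted libraries, with limma 3.58.1 (limma-trend) and DESeq2 1.42.0 as alternatives. The standard error is the log2 fold change over the root of F. No label says that libraries came from separate cultures beyond the line, so p-values measure the spread between these libraries. In the hypoxia comparison the replicate number is the cell line and pairs the samples: the deviation of a hypoxia library from its group mean correlated with that of its untreated partner at 0.836 for DLD1, 0.857 for HCT116 and 0.82 for HCT8. The members and lists were chosen with earlier results of these data known. All 9 genes are named. Of the pathway list, those named are the 3 highest and 3 lowest per comparison among genes with at least 1 CPM in a library of that comparison, and those past the threshold, with further examples chosen after their values were seen. The edgeR fits without the block were tried on simulated counts with a smaller spread than these data have. The coefficient of variation in the data was 0.763 for HIEC6, 0.868 for CRC against normal and 0.876 for hypoxia. That trial therefore does not show how the fits behave at the spread seen here. Gene positions are from GENCODE release 44 on GRCh37, promoters from RefSeq (GRCh38.p14). Counting intervals used SciPy 1.17.1.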

Additional observations from a re-analysis of the deposited data

How the results depend on the processing

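Between CRC and normal lines the count of called genes was 0, against 143 with DESeq2, and 0 with upper-quartile scaling, both other filters, limma-trend, the replicate block (where a shared number joins different lines) and any of the 5 lines left out. Under hypoxia it was 0, against 55 with DESeq2, 200 with the replicate block, 1666 with the block and DESeq2, and 0 to 738 when a library or line was left out (with the block 292 without DLD1, 738 without HCT116 and 6 without HCT8). For HIEC6 it was 90, against 3583 with DESeq2, 255 without a filter on low counts, 136 with at least 10 counts in every library, 601 with limma-trend, and 0 when any of the 4 other lines was left out. The replicate block changed no call of the 9 genes in edgeR. The causes were not tested.

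Log2 fold changes near 0 changed sign. NQO1 between CRC and normal lines (-0.0017) was 0.0826 with upper-quartile scaling, 0.0135 with at least 10 counts in every library, 0.101 with the replicate block and -0.146 to 0.166 with a line left out (0.0086 without HCT116, 0.1059 without HCT8). GCLM was -2.38 to 0.083, the latter without HIEC6. Under hypoxia GCLC (0.0171) was -0.0084 without a filter, -0.0175 with limma-trend, -0.0174 with the replicate block and -0.409 to 0.338 with a library or line left out (-0.1991 without untreated DLD1, -0.0257 without untreated HCT116, and with the block -0.0046 without HCT116 and -0.0893 without HCT8). HMOX1 was then -0.0739 to 0.605 (-0.0669 with the block without HCT116) and PTGR1 -0.405 to 0.208 (0.0975 without DLD1 under hypoxia). After TMM scaling, an alternative chosen after seeing the data, 3 genes in place of 5 were lower in all 3 lines and 2 in place of 4 had no overlap. At 1 library per line and condition, the spread between cultures of 1 line is unknown.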
